A study of Mus musculus with 18 samples.

Results

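The genes of the major histocompatibility complex (MHC), of the immunoproteasome and of peptide loading were examined in bone marrow leukemia stem cells of C57BL/6JRj mice. The 34 genes were chosen by symbol, 22 for the class I pathway and 12 for the class II pathway, among 54347 genes in the table. The genotypes compared were labelled Prx1-Cxcl12-mutant (5 mice, numbered 6, 7, 8, 10 and 12) and Prx1-Cxcl12-wild type (4 mice, numbered 1, 2, 3 and 4, called controls here). All mice carried leukemia and were taken 30 days after its induction, and 7000 leukemia stem cells were sorted per mouse. RNA was read at the 3' ends of transcripts by MARS-seq, a low-input method used here on bulk cells, in 2 technical libraries per mouse, which were summed. Prx1 is a gene of limb mesenchyme whose promoter is commonly used to reach stromal cells of the long bones, and Cxcl12 encodes a chemokine that those cells make. The sorted cells are therefore not the cells in which Prx1 acts. On the age and sex of the mice, the leukemia driver and the sort markers the sources used here give nothing.

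Class I molecules display peptides from inside the cell to CD8 T cells and natural killer cells. Cytosolic proteins are cut by the proteasome, whose catalytic subunits are exchanged for Psmb8, Psmb9 and Psmb10 after interferon signals. The peptides are carried into the endoplasmic reticulum by Tap1 and Tap2, trimmed by Erap1, and loaded with the help of tapasin (Tapbp) onto a heavy chain paired with B2m. Nlrc5 is the transactivator of class I genes, as Ciita is of class II genes, and both work with the RFX, CREB and NF-Y factors bound at the gene's promoter. Class II molecules present peptides from endosomes to CD4 T cells, and are made mainly by dendritic cells, B cells and macrophages. Loss of either class from leukemic blasts is a known route of escape from T cells.

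The promoters of the heavy chain genes and of B2m are shown because the class I genes are described below by how they moved together over the mice. Each is the 200 bases before a transcription start, from the RefSeq promoter table (GRCm38.p6), written 5′ to 3′ on the strand of the gene. The GENCODE gene bounds given further on reach past some of these RefSeq starts. Capitals mark matches on either strand to 5 motifs: a kappaB element (GGGATTCCC), an interferon-stimulated response element core (GAAANNGAA), an interferon regulatory factor element (AAGTGAAA), a site alpha core (TGACGC) and the CCAAT box (CCAAT).
H2-K1 (chr17:34000334-34000533, minus strand): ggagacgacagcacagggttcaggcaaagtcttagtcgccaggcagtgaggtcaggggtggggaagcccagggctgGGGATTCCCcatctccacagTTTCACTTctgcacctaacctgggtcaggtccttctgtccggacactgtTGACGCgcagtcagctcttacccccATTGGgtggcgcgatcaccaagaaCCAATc
H2-D1 (chr17:35262894-35263093, plus strand): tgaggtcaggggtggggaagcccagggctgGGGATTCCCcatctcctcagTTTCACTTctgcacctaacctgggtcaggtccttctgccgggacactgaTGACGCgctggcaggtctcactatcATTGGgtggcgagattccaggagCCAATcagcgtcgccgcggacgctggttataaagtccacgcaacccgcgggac
H2-Q7 (chr17:35438955-35439154, plus strand): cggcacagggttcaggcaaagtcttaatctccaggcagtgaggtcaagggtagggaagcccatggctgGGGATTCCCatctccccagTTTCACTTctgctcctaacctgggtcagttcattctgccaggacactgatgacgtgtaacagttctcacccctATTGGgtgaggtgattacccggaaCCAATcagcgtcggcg
H2-T22 (chr17:36042743-36042942, minus strand): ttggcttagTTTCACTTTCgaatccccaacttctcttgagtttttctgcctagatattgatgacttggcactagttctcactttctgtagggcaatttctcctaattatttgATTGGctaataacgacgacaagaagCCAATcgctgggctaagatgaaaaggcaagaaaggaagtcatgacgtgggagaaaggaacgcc
B2m (chr2:122147487-122147686, plus strand): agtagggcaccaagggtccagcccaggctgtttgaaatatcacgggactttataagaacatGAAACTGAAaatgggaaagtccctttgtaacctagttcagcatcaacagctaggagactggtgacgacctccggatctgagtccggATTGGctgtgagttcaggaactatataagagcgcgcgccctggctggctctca
In the 300-base windows of that table (250 bases before and 50 after the start), 26 of the 34 genes had an entry, 17 of class I and 9 of class II. The kappaB element was in 4 of 17 class I genes (H2-K1, H2-D1, H2-Q6 and H2-Q7) and in 0.353% of all 32851 windows. The AAGTGAAA element was in 8 of 17 class I genes, the heavy chain genes H2-K1, H2-D1, H2-M3, H2-Q4, H2-Q6, H2-Q7 and H2-T22 and the peptidase gene Erap1, and in 1.6% of windows. GAAANNGAA was in 5 of 17 class I genes (B2m, Erap1, H2-T22, H2-T23 and Psme1) against 8.56% of windows, and overlapped AAGTGAAA in H2-T22 and Erap1. TGACGC was in 5 of 17, against 7.4%. None of these 4 motifs was found in the 9 class II genes, whereas CCAAT was in 12 of 17 class I and 8 of 9 class II genes, against 37.4% of windows. The heavy chain genes with AAGTGAAA shared the order of low mice given below. So did Tap1, Psmb8, Psmb9 and Psmb10, which had none of the first 4 motifs. Of the 5 genes with GAAANNGAA, H2-T22 and Psme1 shared that order, and B2m, Erap1 and H2-T23 were outside it. Erap1 also had AAGTGAAA, so neither motif marked the genes in the order. Whether the motifs bear on that order was not tested. A match is a description of letters and is not evidence of a bound factor.

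Cxcl12, the gene named in the genotype, had at most 4 counts in any mouse and Prrx1, which encodes Prx1, at most 1, so the sorted cells give no check of the genotype. Total counts ran from 11766467 to 25485899 per mouse, and 3 counts, taken as the floor, equal 0.12 to 0.25 CPM, the count scaled to the library total with trimmed-mean (TMM) factors. Totals were 11766467 to 16784991 in controls and 15959029 to 25485899 in mutants, so the mutant libraries were deeper in most mice. All 10 markers listed for leukemic progenitors, among them Hoxa9, Meis1, Mpo and Elane, were measured well enough to be tested. In bulk RNA, fewer cells of a type and less RNA per cell cannot be told apart.

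No antigen presentation gene passed the test between the genotypes. In the edgeR quasi-likelihood test, 0 of 22 class I and 0 of 9 tested class II genes had a Benjamini-Hochberg adjusted p under 0.05, where 9 of 12973 genes, 0.0694%, did. DESeq2 and limma-voom also called 0 of the 31. At an unadjusted p under 0.05, 0 of 31 were higher in mutants, against 4.96% of all tested genes, and 1 was lower, the class II gene H2-Ob, against 4.89%. No member had mutant and control values that were fully apart, as 1.87% of all genes had with mutants higher and 2.13% with mutants lower. The median log2 fold change, mutant over control, was 0.23 over class I genes and -0.07 over class II genes, beside 0.01 over all tested genes. Of the 22 class I genes, 19 had a value above 0, and of 9 class II genes, 4, beside 6706 of all 12973 tested genes. The class I median was 0.07 without mutant 7, 0.07 without control 1, 0.11 without control 3, 0.35 without control 2, 0.47 without control 4 and -0.03 with the log2 total count as a covariate.

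**Figure D1:**
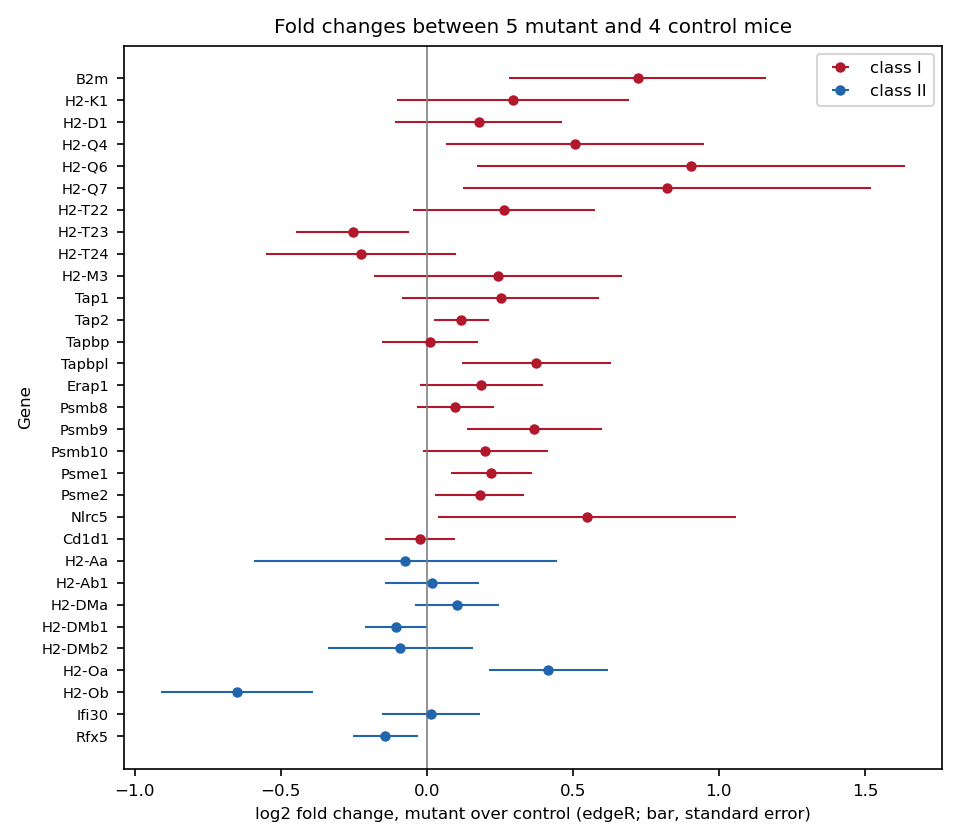
Log2 fold change of each tested gene, mutant over control, from edgeR (points) with its standard error (bars), for class I (red) and class II (blue) genes. Values run from -0.65 for H2-Ob to 0.90 for H2-Q6, and the widest bars belong to the class I genes H2-Q6 and H2-Q7.

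The class I genes spread widely over the mice of both genotypes. H2-K1, a classical class I heavy chain gene (ENSMUSG00000061232, GRCm38 chr17:33996017-34000347), was at 459.3, 1109, 429.5 and 1460 CPM in controls 1 to 4. In mutants 6, 7, 8, 10 and 12 it was at 802.8, 1626, 471.3, 1058 and 1348 CPM. Controls 1 and 3 and mutant 8 were low and mutant 7 was the highest, so both genotypes held low and high mice. The control mean was 865 ± 506 CPM (SD, n = 4) and the mutant mean 1061 ± 452 CPM (SD, n = 5), a log2 fold change of 0.30 (SE 0.40, edgeR adjusted p = 0.833) that was 0.07 to 0.67 with 1 mouse left out. H2-D1, the other classical heavy chain gene (chr17:35262730-35267499), had 605.0, 1262, 538.1 and 1357 CPM in the controls. Mutants had 832.3, 1445, 707.2, 1110 and 1224 CPM, with the same 3 mice lowest (0.18, SE 0.29, adjusted p = 0.866).

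B2m, the light chain shared by all class I molecules (ENSMUSG00000060802, chr2:122147686-122153083), followed another order. Controls 1 to 4 had 486.3, 2172, 1522 and 1986 CPM. Mutants 6, 7, 8, 10 and 12 had 2871, 4614, 1540, 2649 and 1043 CPM. Mutant 12, high for H2-K1, was here the second lowest of the 9 mice, and the genotypes overlapped. Means were 1541 ± 755 CPM (SD, n = 4) and 2543 ± 1384 CPM (SD, n = 5). The log2 fold change, 0.72 (SE 0.44), had the smallest p of the class I genes and missed the threshold (edgeR p = 0.127, adjusted p = 0.605). It was 1.18 in the first technical libraries alone, 0.30 in the second and 0.45 with mutant 7 less its first library. It was -0.27 with the log2 total count as a covariate and 0.39 to 0.93 with 1 mouse left out, lowest without mutant 7 (0.39) and control 1 (0.42).

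Of the class I genes, H2-Q6 and H2-Q7, which encode non-classical heavy chains, had the widest ranges over the mice. H2-Q7, a Qa-2 gene (chr17:35439155-35443773), was at 16.59, 115.4, 22.27 and 149.0 CPM in controls and 59.65, 320.0, 32.62, 106.6 and 152.7 CPM in mutants. The highest mouse was 19.3 times the lowest, and the lowest were again controls 1 and 3 and mutant 8. H2-Q6, its neighbour, ranged from 1.19 to 30.1 CPM, 25.4-fold, and both had fold changes short of the test (0.82, SE 0.70, for H2-Q7 and 0.90, SE 0.73, for H2-Q6). With 1 mouse left out the fold change of H2-Q7 was 0.21 to 1.38 and that of H2-Q6 0.32 to 1.49 on the log2 scale, lowest without mutant 7 and highest without control 4. H2-Q4 ranged from 31.3 to 184.1 CPM, H2-T22 from 30.6 to 102.9 CPM and H2-M3, which presents formylated peptides, from 4.82 to 22.1 CPM. H2-T23, the Qa-1 gene whose product is read by the NKG2A receptor of natural killer cells, had a value below 0, with a control mean of 299 ± 81.6 CPM (SD, n = 4) and a mutant mean of 251 ± 57.2 CPM (SD, n = 5; -0.25, SE 0.19, edgeR adjusted p = 0.69). H2-T24, also below 0 (-0.22, SE 0.33), was low in all mice at 0.63 to 1.78 CPM. Cd1d1, which presents lipids, had the narrow range of 8.93 to 11.7 CPM. Heavy chain genes are near-identical copies and their reads can be divided wrongly between them, so single values of the H2-Q and H2-T genes are uncertain.

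**Figure D2:**
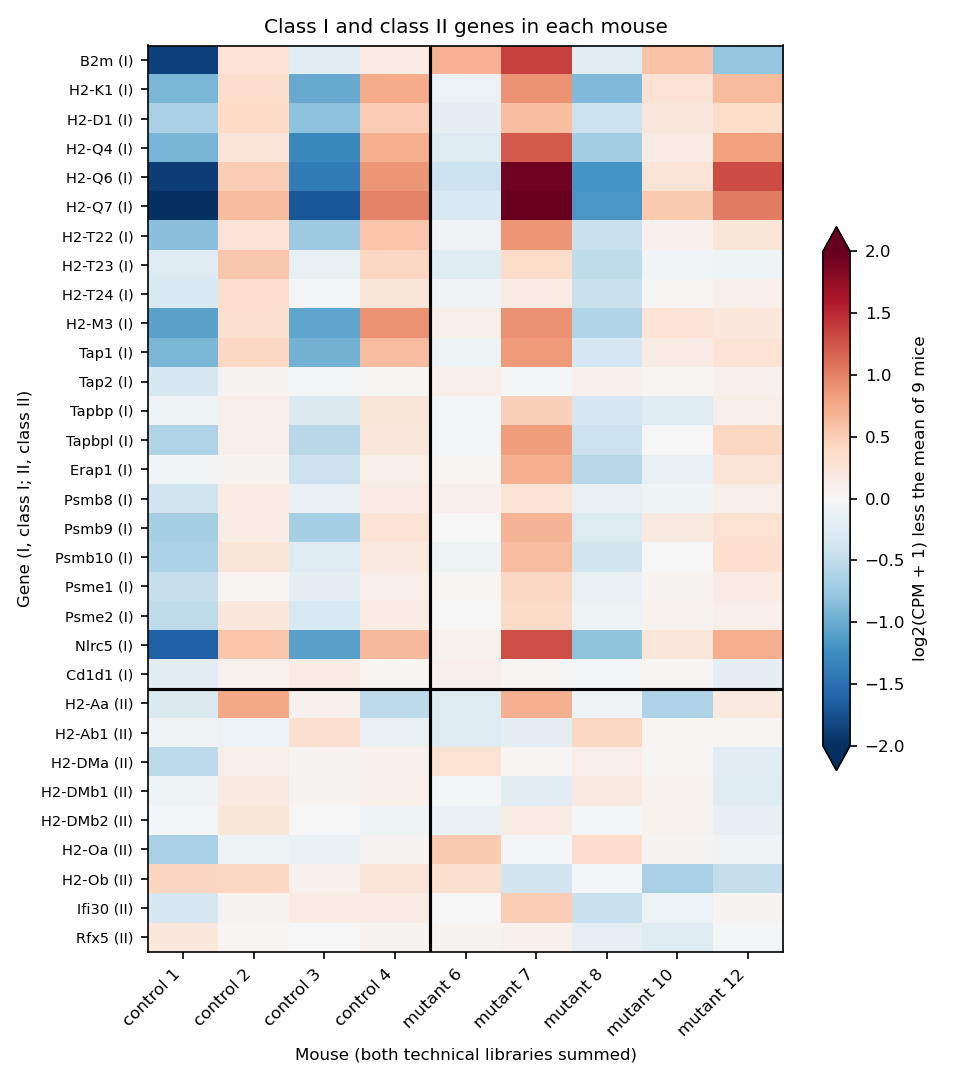
Log2(CPM + 1) of each tested gene in each mouse, less its mean over the 9 mice (colour), with controls left and mutants right of the vertical line and class I above class II. Most class I rows are blue in control 1, control 3 and mutant 8 and red in mutant 7 (H2-Q7 16.59, 22.27 and 32.62 against 320.0 CPM). No class II row has those 3 mice lowest, and 1 of 9, Ifi30, is highest in mutant 7.

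The immunoproteasome genes moved in the same order over a smaller range. Psmb8, the exchanged beta-5 subunit (chr17:34197721-34201454), was at 442.5, 647.8, 531.9 and 654.4 CPM in controls and 631.1, 708.4, 525.9, 549.1 and 632.3 CPM in mutants. Psmb9, the exchanged beta-1 subunit, was at 79.93, 141.0, 79.75 and 153.8 CPM in controls and 126.5, 203.0, 104.4, 143.7 and 156.4 CPM in mutants (0.37, SE 0.23, edgeR p = 0.134, adjusted p = 0.618). For both, controls 1 and 3 and mutant 8 were the 3 lowest and mutant 7 the highest. Psme1, a subunit of the PA28 activator, had 330.1, 467.1, 399.5 and 498.3 CPM in controls and 462.1, 608.0, 413.7, 475.5 and 510.1 CPM in mutants (0.22, SE 0.14, edgeR p = 0.137, adjusted p = 0.621). Its partner Psme2 had 360.5, 594.4, 416.5 and 567.1 CPM in controls and 515.2, 665.8, 479.6, 539.2 and 549.4 CPM in mutants. In all 4 genes the genotypes overlapped. Psmb10, the exchanged beta-2 subunit, ranged from 144.8 to 343.2 CPM.

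Of the loading genes, Tap1 followed the heavy chains and Tap2, the other subunit of the same transporter, did not. Tap1 ranged from 65.1 CPM in control 3 to 230.3 CPM in mutant 7, a 3.54-fold range. Tap2 stayed between 168.3 and 228.2 CPM, a 1.36-fold range, and its lowest value was in control 1. Tapbpl, which edits bound peptides, ranged from 30.9 to 86.0 CPM, Tapbp from 99.3 to 175.5 CPM and Erap1 from 41.5 to 100.6 CPM. Their log2 fold changes between genotypes were 0.01 to 0.38. Tap1 and Psmb9 overlap on opposite strands, Tapbp shares its strand with the overlapping Zbtb22, and Erap1 overlaps Cast, so a part of these reads may belong to the neighbour.

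Nlrc5, the class I transactivator (chr8:94434356-94527272), varied with most other class I genes over the mice, and regulation was not tested. It was at 3.48, 19.2, 5.45 and 20.6 CPM in controls 1 to 4 and at 13.4, 32.7, 6.85, 15.05 and 21.9 CPM in mutants 6, 7, 8, 10 and 12. The lowest 3 mice were controls 1 and 3 and mutant 8, and mutant 7 was highest, 9.42 times the lowest. Between genotypes the means were 12.2 ± 8.97 CPM (SD, n = 4) and 17.98 ± 9.84 CPM (SD, n = 5; log2 fold change 0.55, SE 0.51, edgeR adjusted p = 0.749). The fold change was 0.21 to 0.92 with 1 mouse left out.

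That order of mice was counted over the genes after their values had been seen, and is a description with no test. The 3 lowest mice were controls 1 and 3 and mutant 8 in 15 of 22 class I genes, 68.2%, in 0 of 9 class II genes and in 202 of 12973 tested genes, 1.56%. The 15 include heavy chain genes and the overlapping Tap1 and Psmb9, between which reads may be shared. Mutant 7 was the highest mouse in 18 of 22 class I genes, 81.8%, in 1 of 9 class II genes (Ifi30) and in 16% of all tested genes. The class I genes outside the shared order of low mice were B2m, H2-T23, H2-T24, Tap2, Tapbp, Erap1 and Cd1d1. The 19 constitutive proteasome and assembly genes, which serve all cells, had 0 with that order of low mice, and mutant 7 was the highest in 6 of them.

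Over the 9 mice, log2(CPM + 1) of most class I genes varied with that of Nlrc5. These relations were added after B2m had been seen to differ from the other class I genes, and 33 were computed. For H2-K1, Pearson's r was 0.964 (exact permutation p = 4.4e-05, adjusted 0.000141, n = 9) and Spearman's rho 0.967 (exact permutation p = 0.000165, adjusted 0.000606). For H2-Q7, r was 0.989 (exact permutation p = 2.76e-06, the smallest that 362880 pairings can give, adjusted 3.03e-05) and rho 1 (adjusted p = 6.06e-05 by exact permutation). The median r over 21 class I genes was 0.956, with 14 above 0.9, from 0.194 for Cd1d1 to 0.989 for H2-Q7. Over 9 class II genes it was 0.249, from -0.54 for H2-Ab1 to 0.713 for Ifi30. The 14 class I genes above 0.9 include heavy chain genes, and Tap1 and Psmb9, which overlap. Reads may be shared between such genes, so the 14 are not fully separate measures. The class I median was 0.96 after the genotype means were subtracted, and 0.933 without controls 1 and 3, the mice farthest from the median of Nlrc5 (0.968 for H2-K1 and 0.98 for H2-Q7). Nlrc5 left a gap between 6.85 and 13.4 CPM, and without the 3 mice under it the class I median was 0.908 and the class II median -0.01. Tap2 and Cd1d1 then had r of -0.78 and -0.35, and B2m 0.191. The class II gene Ifi30 then had 0.899, and 0.956 without controls 1 and 3. Over 9 mice it was the 1 class II gene with an adjusted p under 0.05 for r (exact permutation, adjusted 0.0471, rho 0.667 with adjusted p = 0.0925). With Nlrc5 read in 1 technical library and the class I genes in the other library of the mouse, the median r was 0.907 and 0.916 in the 2 directions. The relation of Nlrc5 to the log2 total count was r = 0.466 (exact permutation p = 0.205, adjusted 0.271, rho 0.433 with adjusted p = 0.344, n = 9), and -0.21 without controls 1 and 3.

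**Figure D3:**
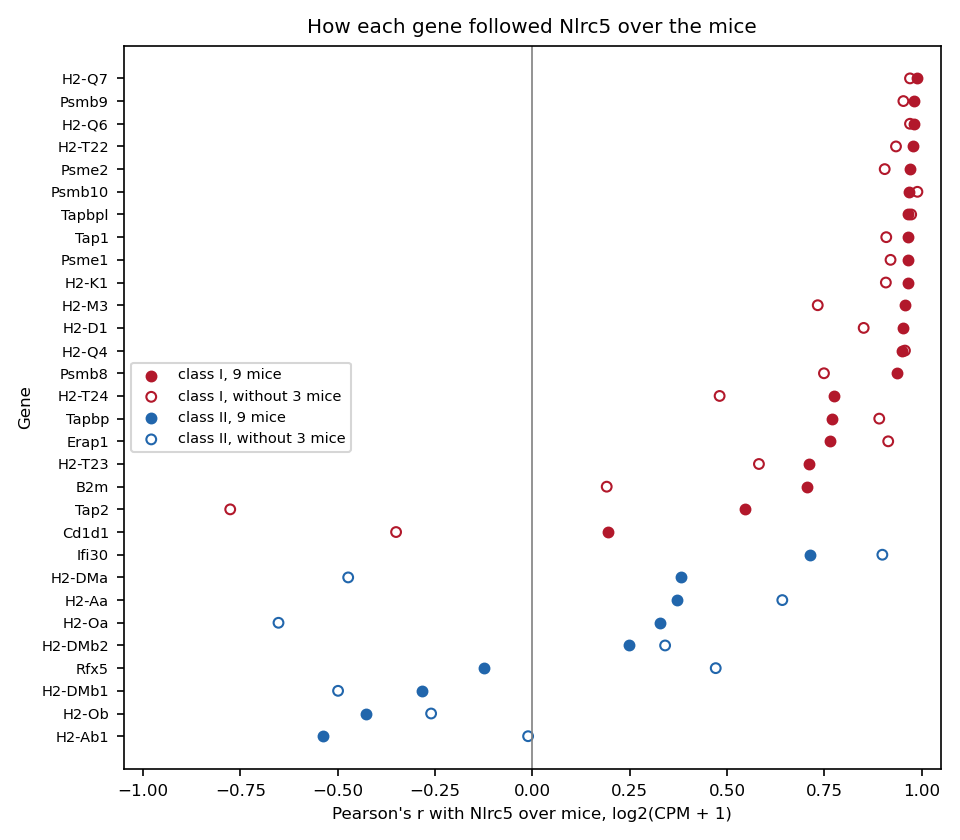
Pearson's r of each gene with Nlrc5 over 9 mice (filled points) and without the 3 mice with the lowest Nlrc5 (open points), for class I (red) and class II (blue). Of 21 class I genes 14 lie above 0.9, and the class II genes spread from -0.54 to 0.713.

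For B2m, 8 relations were computed. Its r with H2-K1 was 0.56 (exact permutation p = 0.115, adjusted over 8 relations 0.118, rho 0.50 with adjusted p = 0.194, n = 9), and with Nlrc5 0.705 (exact permutation p = 0.031, adjusted 0.0735, rho 0.483 with adjusted p = 0.194). In the 33 relations of Nlrc5 the adjusted p of the latter was 0.0471. With Psmb8 r was 0.755 (exact permutation p = 0.0179, adjusted 0.0735, rho 0.60 with adjusted p = 0.194) and with Tap1 0.668 (exact permutation p = 0.0459, adjusted 0.0735, rho 0.567 with adjusted p = 0.194). Without control 1 and mutant 7, the mice farthest from the median of B2m, the 4 values were 0.106, 0.117, 0.131 and 0.185. With the log2 total count r was 0.757 (exact permutation p = 0.0206, adjusted 0.0735, rho 0.80 with adjusted p = 0.111), and that was 0.151 without the same mice. These r values were thus low without both of those mice. Without the 3 mice lowest in B2m, controls 1 and 3 and mutant 12, the 4 values were 0.634, 0.755, 0.647 and 0.58. The r with the log2 total count was then 0.283. The genes other than members with the largest r to B2m, among 8544 genes with a mean of at least 5 CPM, were Cyfip1 (0.986), Anapc10 (0.947), Chmp3 (0.947), Plgrkt (0.925), Nmi (0.924), Il2rg (0.92), Ndufaf1 (0.915) and Hpse (0.915), over 9 mice. By the same measure, the genes most like Nlrc5 were Serpina3g (0.99), Zbp1 (0.984), Irf1 (0.977), Irgm2 (0.975), Irf7 (0.973), Parp14 (0.972), Gbp6 (0.97) and Igtp (0.965).

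B2m differed widely between the technical libraries of some mice. The first and second library of mutant 7 gave 6124 and 2406 CPM of B2m, and those of control 2 gave 1000 and 3030 CPM. For H2-K1 the same libraries gave 1298 and 2082 CPM, and 1102 and 1118 CPM. The SD between libraries of a mouse, on the log2(CPM + 1) scale, was 0.54 for B2m, 0.21 for H2-K1, 0.15 for H2-D1 and 0.15 for H2-Q7. Mutant 7 and control 2 carried the value for B2m, whose median difference between libraries over the 9 mice was 0.20, below that of H2-Aa (0.57) or Nlrc5 (0.36). Between mice of a genotype, on summed libraries, the SD was 1.67 times the library SD for B2m. It was 3.72 times for H2-K1, 3.77 times for H2-D1 and 9.43 times for H2-Q7. Not every heavy chain had a ratio above that of B2m, since it was 1.02 for H2-T24 and 0.46 for Cd1d1.

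**Figure D4:**
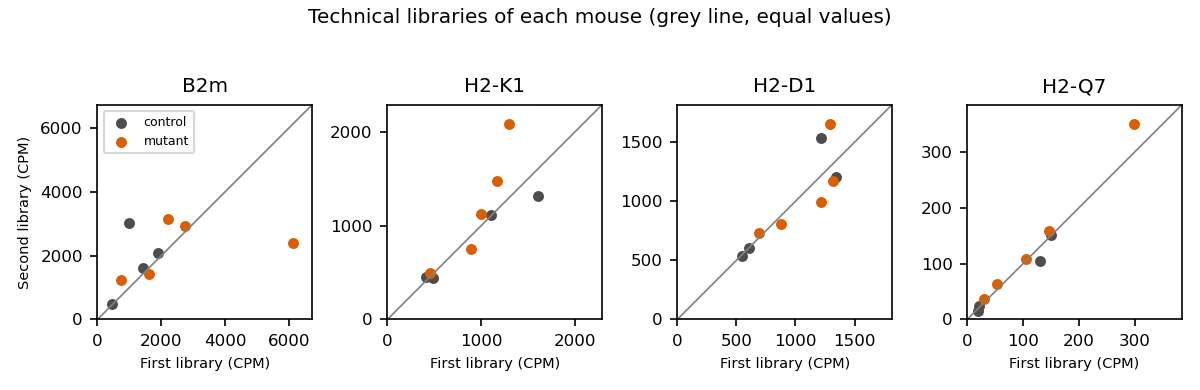
CPM in the first (x axis) and second (y axis) technical library of each mouse for B2m, H2-K1, H2-D1 and H2-Q7, with equal values on the grey line. H2-Q7 lies along the line (297.8 and 349.1 CPM in mutant 7), whereas B2m of mutant 7 (6124 and 2406 CPM) and control 2 (1000 and 3030 CPM) lies far from it.

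Over all class I genes the median SD between mice of a genotype was 0.45, and that between libraries 0.17. Over class II genes these were 0.25 and 0.25, and over all tested genes 0.20 and 0.23. The SD between mice was taken on summed libraries and that between libraries on single ones. Equal values are therefore no sign that the spread over mice was only technical. Of the class I genes, 20 of 22 had an SD between mice above the median of all tested genes, and of the class II genes 6 of 9. Among the 7529 genes whose mean reached 10 CPM the medians were 0.16 and 0.19.

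**Figure D5:**
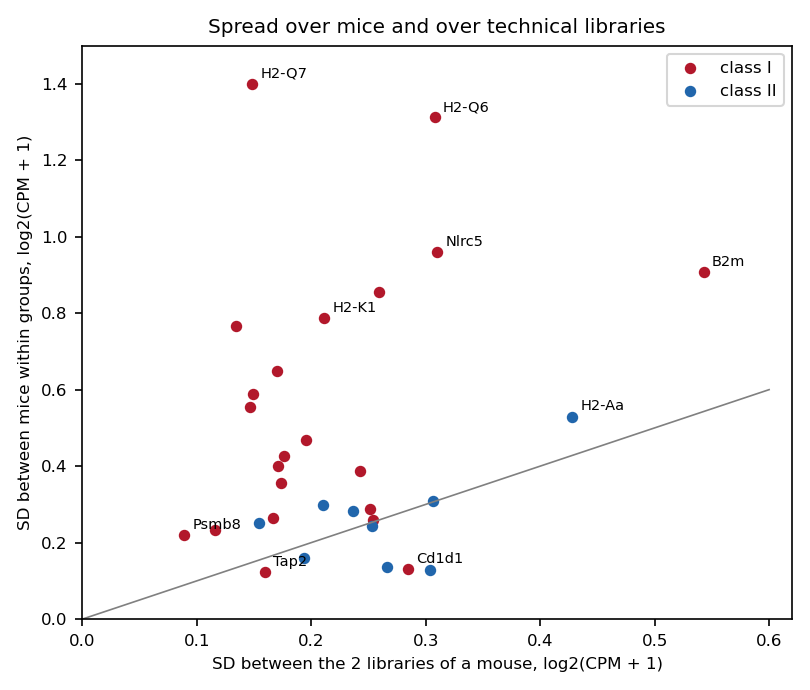
SD between mice within a genotype, on summed libraries (y axis), against the SD between the 2 libraries of a mouse (x axis), both on the log2(CPM + 1) scale. Equal values lie on the grey line, which does not mark a spread that is technical only. Most class I genes (red) lie above the line, H2-Q7 at 1.40 against 0.15, while class II genes (blue) lie near it.

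The class II chain genes and the invariant chain were low beside the classical class I genes, and the transactivator was at the floor. Ciita had 0 counts in every control and in mutants 6 and 10, and 1 count in mutants 7, 8 and 12. Cd74, the invariant chain, had 3, 12, 2 and 0 counts in controls and 5, 24, 3, 4 and 6 in mutants, and H2-Eb1 had 0 to 17 counts. These 3 genes were not tested. H2-Aa, the class II alpha chain, was at 0.49 to 2.91 CPM. H2-Ab1, the beta chain, was at 14.6, 14.1, 19.5 and 14.0 CPM in controls and 12.7, 13.5, 21.01, 15.7 and 15.7 CPM in mutants. Its highest mice were control 3 and mutant 8, which were among the lowest for class I, and the genotypes overlapped (0.02, SE 0.16, edgeR adjusted p = 0.977).

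The class II loading genes were better covered. H2-DMa, a chain of the peptide exchange factor DM (chr17:34119541-34139101), was at 106.0, 168.5, 159.0 and 162.2 CPM in controls and 189.0, 156.6, 168.1, 155.9 and 130.6 CPM in mutants. H2-DMb1, the other DM chain, had 38.9, 47.1, 42.8 and 44.4 CPM in controls and 40.1, 35.6, 47.5, 43.4 and 34.8 CPM in mutants. Ifi30, a lysosomal thiol reductase induced by interferon gamma, had 99.0, 130.5, 138.6 and 139.2 CPM in controls and 126.2, 177.2, 91.5, 115.5 and 130.7 CPM in mutants. None of the 3 passed the test between genotypes (0.10, SE 0.14, -0.11, SE 0.11, and 0.02, SE 0.17). H2-DMa overlaps Brd2 on the opposite strand, which had a mean of 80.8 CPM, and its reads may hold some of that gene.

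H2-Oa and H2-Ob, the chains of the DM inhibitor DO, had values in opposite directions. H2-Ob was at 4.66, 4.57, 3.47 and 4.03 CPM in controls and 4.24, 2.25, 3.13, 1.69 and 2.02 CPM in mutants. Of the 5 mutants, 4 lay below every control, and the log2 fold change was -0.65 (SE 0.26), short of the threshold (edgeR p = 0.0279, adjusted p = 0.431). It was -1.03 in the first technical libraries and -0.35 in the second. H2-Oa was at 3.48 to 6.28 CPM in controls and 5.63 to 9.03 CPM in mutants (0.42, SE 0.20, edgeR p = 0.0632, adjusted p = 0.529). Both were named after their values had been seen. Of the rest, H2-DMb2 was at 1.07 to 1.72 CPM and Rfx5, a subunit of the RFX factor used by both classes, at 12.1 to 17.2 CPM.

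Of 18 interferon gamma targets, 15 were tested and 0 passed. The chemokine gene Cxcl10 alone had an unadjusted p under 0.05, with means of 4.77 ± 1.18 CPM (SD, 4 controls) and 10.7 ± 4.74 CPM (SD, 5 mutants; 1.16, SE 0.29, edgeR adjusted p = 0.253), with no overlap between genotypes. The 15 genes had a median log2 fold change of 0.64 with 14 of 15 above 0. Over all tested genes the median was 0.01, with 6706 of 12973 above 0. Mutant 7 was the highest mouse in all 15 and controls 1 and 3 and mutant 8 were the lowest in 9 of 15. Gbp2, an interferon-induced GTPase, ran from 1.03 CPM in control 1 to 56.4 CPM in mutant 7, and was named after its values had been seen. Of 15 tested signalling genes, 3 had those lowest mice and 5 were highest in mutant 7. None of the 15 had an unadjusted p under 0.05, and Ifngr1, the interferon gamma receptor chain, was at 118.1 to 164.3 CPM in controls and 118.5 to 176.0 CPM in mutants. Irf1, a transcription factor induced by interferon gamma, varied with Nlrc5 over the mice. Irf1 was at 20.6, 51.6, 26.4 and 50.4 CPM in controls and 34.4, 79.2, 27.4, 40.6 and 51.7 CPM in mutants, with r of 0.977 (exact permutation p = 8.27e-06, adjusted 6.82e-05, rho 0.983 with adjusted p = 0.000273, n = 9) and 0.971 without controls 1 and 3.

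No other gene of the pathway lists passed the test, and unadjusted p-values under 0.05 are read against the 4.96% (higher) and 4.89% (lower) of all genes that had one. Of 19 constitutive proteasome genes 0 passed, and Pomp, the assembly factor, had the 1 unadjusted p under 0.05 (0.30, SE 0.13, edgeR adjusted p = 0.473). Of 10 loading chaperones 0 did at either level, and the calreticulin gene Calr was at 1394 to 1717 CPM in controls and 1314 to 1691 CPM in mutants. Of 9 tested transcription factor genes Nfyb, a subunit of NF-Y, had the 1 unadjusted p under 0.05, at 34.3 ± 2.98 and 44.2 ± 5.22 CPM (SD, n = 4 and 5; 0.37, SE 0.11, edgeR adjusted p = 0.307). Among 7 tested genes of class II processing, the proteases Ctsb (-0.30, SE 0.10) and Ctsd (-0.24, SE 0.10) and the tetraspanin Cd9 (-0.29, SE 0.12) had values below 0 at an unadjusted p under 0.05, and the protease gene Ctsl one above 0 (0.41, SE 0.18), 4 of 7, with edgeR adjusted p-values of 0.369, 0.435, 0.44 and 0.472. For Cd9 every mutant (12.6 to 16.9 CPM) lay below every control (17.4 to 20.02 CPM). Of 5 tested costimulation genes, Cd48 had a value of -0.64 (SE 0.28, adjusted p = 0.473). Of 6 tested class I-like genes 2 had such a p. The iron regulator Hfe was at 3.98 ± 0.88 and 7.12 ± 1.24 CPM (SD, n = 4 and 5; 0.85, SE 0.19, edgeR adjusted p = 0.176) and the Fc receptor gene Fcgrt at 0.90 ± 0.29 and 1.43 ± 0.09 CPM (0.66, SE 0.27, adjusted p = 0.451), both without overlap between genotypes.

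Markers of other cells were mixed, and several lists held genes well above the floor. Of 10 T and natural killer cell markers, Cd3g, Cd4, Ncr1 and Ifng, the interferon gamma gene, had 0 counts in all 9 mice, and only Nkg7 was tested. The summed level of that list was 89.7 to 143.9 CPM in controls and 101.8 to 194.4 CPM in mutants, nearly all from Nkg7. Of 10 dendritic cell markers 3 were tested, with sums of 165.0 to 243.2 and 175.0 to 264.0 CPM, carried by Bst2, while Clec9a, Zbtb46 and Ccr7 had at most 1, 4 and 3 counts. Of 10 B and plasma cell markers 3 were tested, with sums of 163.5 to 227.9 and 126.1 to 214.5 CPM, carried by Ighm and Cd79b. Igkc, an immunoglobulin light chain gene, was at 24.9 CPM in mutant 7, the mouse with the highest class I levels, and at 0.06 to 0.95 CPM in the other 8 mice. Of 10 monocyte and macrophage markers 7 were tested, with sums of 654.7 to 1379 and 698.6 to 1444 CPM, carried by Ly6c2. Adgre1, the F4/80 gene of macrophages, was at 34.3 to 46.3 CPM in controls and 21.9 to 31.7 CPM in mutants, without overlap (-0.53, SE 0.12, edgeR p = 0.000706, adjusted p = 0.176). Of 10 mature neutrophil markers 9 were tested, with sums of 427.1 to 940.0 CPM in controls and 202.7 to 439.2 CPM in mutants. Camp, a secondary granule gene, carried the difference (-1.47, SE 0.27, edgeR p = 0.000115, adjusted p = 0.115), Mmp9 was also below 0 (-0.63, SE 0.27, adjusted p = 0.467) and Ltf above it (1.47, SE 0.39, adjusted p = 0.259). Of 10 erythroid markers 6 were tested, all with values above 0, and sums were 6.70 to 52.1 CPM in controls and 16.0 to 59.6 CPM in mutants. The carbonic anhydrase gene Car2 had a log2 fold change of 2.07 (SE 0.39, edgeR p = 0.000182, adjusted p = 0.116) and Hbb-bt one of 1.87 (SE 0.68, adjusted p = 0.398). Of 10 stromal and endothelial markers 3 were tested, with sums of 38.8 to 53.7 and 35.8 to 48.2 CPM. Of the progenitor markers, Kit was lower in every mutant than in any control (-0.43, SE 0.11, edgeR p = 0.0023, adjusted p = 0.254) and Ctsg had a value of 0.61 (SE 0.25, adjusted p = 0.448). The part of other cells in the class I levels was not tested.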

How the data were processed

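Polyadenylated RNA of sorted leukemia stem cells was read by 3' end MARS-seq in 18 libraries from 9 mice, per the labels' protocols. The authors deposited estimated counts for 54347 genes. Of tools and builds, Salmon 1.3, bcl2fastq, FastQC and GRCm38 stand in the submitters' processing notes without role or order, and 11.3% of the values were not whole. Annotation release, strand setting and use of molecular identifiers were not stated in the sources used here. For names, the first 18 characters of each ID were matched to GENCODE mouse release 21 on GRCm38, which named 54094 IDs.

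Counts were summed per mouse and rounded, so the mouse is the replicate, and the labels name no batch. The quasi-likelihood F-test of edgeR 4.0.16 (R 4.3.3) was used after TMM scaling and filterByExpr at a minimum count of 10, mutant against control with no covariate, 2-sided, with Benjamini-Hochberg adjustment over 12973 genes and calls at an adjusted p under 0.05. The step was tested on simulated data. Library totals ran from 3825500 to 15071673, and floors cover counting error only. Correlations used log2(CPM + 1) over 9 mice, with exact 2-sided permutation over all pairings. Those planned for Cd74 with Ciita, H2-Aa and the total count were not run, since Cd74 and Ciita were near the floor. Promoters and positions of starts come from RefSeq.

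The members and lists were chosen with earlier results of these data known. Values in every mouse are given for the 6 class I genes with the highest mean CPM, the 3 with the smallest p, the 4 class II genes with the highest mean CPM, Ciita and Nlrc5. Of each pathway list the genes with an unadjusted p under 0.05, at most 3, or else the most abundant one, were named, and the 8 genes most like B2m. Other genes given mouse by mouse, Ctsl, the cell markers given with values and the genes most like Nlrc5 were chosen after their values were seen. Alternatives were DESeq2 1.42.0, limma-voom 3.58.1, other scaling factors and filters, each technical library alone, all 18 libraries with a random effect of mouse, mutant 7 without its first library, the total count as a covariate, another pseudocount, and leaving out each mouse. The Nlrc5 relations, subtraction of genotype means, leaving out 3 mice and crossing libraries were added once values were known. Some values computed in the same families of tests are not reported here.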

Additional observations from a re-analysis of the deposited data

Results flagged for a closer look

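Each group of 4 or 5 mice was checked for 1 mouse far from the rest in each tested gene, 62 groups in all, and chance flags about 1 in 20 groups. In 2 groups a mouse stood apart. H2-Ab1 was highest in control 3, at 19.5 CPM, with 14.6 CPM in the next control, a gap of 0.886 of the whole range. H2-DMa was lowest in control 1, at 106.0 CPM, with 159.0 CPM in the next, a gap of 0.848 of the range.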

How the results depend on the processing

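No member was called under any of the 20 alternative settings, and the class I median log2 fold change kept its sign in all but the fit with the total count as a covariate. Genes called in all, 9 in the analysis as reported, numbered 88 with DESeq2, 62 with 18 libraries and the mouse as a random effect, 21 with no low-count filter, 3 in the second technical libraries, and 0 in the first, with a mean of at least 10 CPM, with mutant 7 less its first library or with the total count as a covariate. Leaving out 1 mouse gave 0 to 7 genes, 0 without mutant 7, 8, 10 or 12 or control 3 or 4. The class II median was 0.038 with mutant 7 less its first library, and -0.13 to 0.028 with 1 mouse left out, above 0 without mutant 6, mutant 10 or control 2. The class I median was 0.067 to 0.47 with 1 mouse left out.

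Of 614 fold changes of 31 genes, 568 kept their sign and 46 did not, in 17 genes. None of these folds was called in any setting. The log2 fold changes of opposite sign under the total-count covariate were B2m -0.27, H2-D1 -0.046, H2-T22 -0.14, H2-M3 -0.22, Tap1 -0.17, Tapbp -0.11, Psmb8 -0.047, Psmb10 -0.015, Psme2 -0.036, H2-Ab1 -0.091, H2-DMa -0.14 and Ifi30 -0.16. In the second technical libraries they were H2-T24 0.066, Tapbp -0.034, H2-Aa 0.39, Ifi30 -0.072 and Cd1d1 0.19, and in the first H2-Ab1 -0.23. With mutant 7 less its first library they were Tapbp -0.0095 and H2-Aa 0.092, with limma-voom Tapbp -0.0040 and Ifi30 -0.0055, and with upper-quartile factors Tapbp -0.0017. Genes that changed sign when 1 mouse was left out ranged, over those settings, as follows: H2-D1 -0.014 to 0.41, H2-M3 -0.0067 to 0.76, Tapbp -0.13 to 0.099, Erap1 -0.011 to 0.32, Psmb8 -0.0068 to 0.17, H2-Aa -0.50 to 0.53, H2-Ab1 -0.11 to 0.15, H2-DMa -0.030 to 0.17, H2-DMb2 -0.18 to 0.043, Ifi30 -0.13 to 0.12 and Cd1d1 -0.097 to 0.027. The causes were not tested. No paired analysis was possible because the groups share no mouse numbers. At this depth Ciita, Cd74 and H2-Eb1 were too low to be tested.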
